A study of Mus musculus with 9 samples.

Results

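Total RNA was compared between KO-c43 and KO-c19, 2 knockout lines of Nat10 made in 4T1 cells, a mouse mammary tumour cell line. Both lines carry the Nat10 knockout and neither was treated, so the comparison asks how far one knockout line differs from another when the labelled genotype is the same. Each line is represented by 3 biological replicates and by a single cell line, as is the WT parent, whose 3 libraries are given beside the knockout values as a level and enter the same model. For every library 300000 cells were seeded in a 6 cm dish and RNA was taken after 48 h. The sources used here do not say how the knockout was made. The genes were those with at least 10 normalized counts in at least 3 of the 6 knockout libraries, which are 17090 of the 22469 genes in the deposited table. Of these, 588 reached 10 in exactly 3 libraries, and 431 genes reached it in exactly 2 and were left out.

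Nat10 encodes an acetyltransferase of the nucleolus that places N4-acetylcytidine on ribosomal RNA, transfer RNA and other transcripts. Lines grown from edited tumour cells can descend from few founder cells, and 4T1 cultures hold cells with different karyotypes and different epithelial character. A pair of knockout lines can share the edited gene and still differ elsewhere. The distance between them is a measure that a comparison of one knockout line with its parent does not give. Founder cells and karyotype were not examined here, and their part in the differences was not tested.

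Nat10 (ENSMUSG00000027185) occupies bases 103551601 to 103591615 of chromosome 2 by the table's own positions, for which no build is named in it. It had 6432, 6501 and 6428 normalized counts in WT, 1748, 1761 and 1710 in KO-c19, and 1724, 1748 and 1766 in KO-c43. The knockout libraries overlapped, and the difference of KO-c43 from KO-c19 was 0.01 ± 0.037 (SE) on the log2 scale (limma adjusted p = 0.927). All log2 differences here are KO-c43 minus KO-c19 of log2(normalized count + 1), which understates the change of low genes, and levels of 5 or more digits are rounded to 4 significant digits.

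The normalized totals of the 6 libraries ran from 45628576 to 48282915, and 1 read stood for 0.822 to 1.11 normalized counts. Rn18s, the 18S ribosomal RNA, took 0.916% to 1.26% of normalized counts in KO-c19 and 1.27% to 2.59% in KO-c43, with the highest share in replicate 3, and its part in the results was not tested. The first principal component held 76.7% of the variance among the 6 libraries and separated the lines. Krt8 and Krt18, keratins of luminal epithelium, were abundant in all 6 libraries at 28460 to 32240 and 33250 to 37580 normalized counts. The basal keratin Krt14 had 22.3 ± 0.055 in KO-c19 and 15.1 ± 1.36 in KO-c43 (SD, n = 3) against 4960 in WT. Of 20 markers of macrophages and lymphocytes 6 had values in the table, and their summed level was 309 to 374 in KO-c19 and 246 to 294 in KO-c43. Most of that sum came from Cd68, a macrophage marker, at 238 to 301 in KO-c19 and 174 to 214 in KO-c43. Cd68 was lower in KO-c43 by −0.53 ± 0.125 (limma adjusted p = 0.00215). Ptprc, the pan-leukocyte marker CD45, stayed between 0 and 11.1 in the 6 libraries. Of 20 endothelial and fibroblast markers 8 had values, with sums of 877 to 960 in KO-c19 and 447 to 539 in KO-c43. Nearly all of that sum came from Pdgfra, for a PDGF receptor, which was lower in KO-c43 (450 ± 48.2 against 866 ± 32.9), while Col1a1 and Pecam1 stayed at or below 17.2 in every knockout library.

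Many transcripts differed between the lines. Of 17090 genes, 3693 were higher in KO-c43 (21.6%) and 3182 lower (18.6%), together 40.2% of those tested, by limma with Benjamini-Hochberg adjustment over all tested genes and a threshold of 0.05. At least 2-fold, 409 were higher (2.39%) and 563 lower (3.29%). The libraries of the lines did not overlap for 8301 genes, or 48.6%, and the median difference over all genes was −0.00 on the log2 scale. Dividing each library by its total in place of the deposited scaling turned the split to 2920 higher and 4281 lower, with a median over all genes of −0.055. Without KO-c43 replicate 3, the library richest in Rn18s, 3208 genes were higher and 2829 lower. Since each line was sampled only through repeat cultures, the p-values reflect culture-to-culture spread and not variation among independently made lines.

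Of the genes furthest above KO-c19 in KO-c43, Kctd12b differed most. Kctd12b, a gene with a channel tetramerization (KCTD) domain, had 29.6, 32.4 and 18.9 normalized counts in KO-c19 and 6129, 6443 and 6749 in KO-c43, with WT at 104 to 128. The difference was 7.88 ± 0.159 (SE, limma adjusted p = 6.06e-13), and WT lay between the lines. Sox5, an SRY-box transcription factor gene, had 1.64, 3.04 and 3.34 in KO-c19 and 530, 575 and 607 in KO-c43, with WT at 151 to 170 (7.31 ± 0.178, limma adjusted p = 9.19e-16). Satb1, for a chromatin organizer, had 9.04, 11.2 and 7.79 in KO-c19 and 678, 735 and 696 in KO-c43, with WT at 41.1 to 59.5 (6.10 ± 0.168, limma adjusted p = 4.41e-15). In each of these 3 genes WT fell between the knockout lines and all KO-c43 libraries stood above all others.

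Mgat3, for the enzyme that adds bisecting N-acetylglucosamine to N-glycans, was 60.2-fold higher in KO-c43, at 1200, 1338 and 1246 normalized counts against 23.01, 17.22 and 20.04. Miga1, for a mitochondrial fusion protein, had 60.0, 74.0 and 79.0 in KO-c19 and 1995, 1963 and 2109 in KO-c43, where WT had 2222 to 2299. Here KO-c19 stood apart from WT and KO-c43, and the neighbouring genes did not share its size of difference: Fubp1 differed by 0.03 ± 0.037 (limma adjusted p = 0.586) and Usp33 by 0.22 ± 0.042 (limma adjusted p = 0.000379). Neighbours were chosen after the values were seen. Beside Kctd12b, Ubqln2 was also higher, by 1.27 ± 0.0435, and Nbdy gave 0.07 ± 0.0548, which did not pass (limma adjusted p = 0.316). Sorbs2, for an actin-associated adaptor, followed the order WT, KO-c43, KO-c19, at 9176 to 9645, 2646 to 2825 and 276 to 322 normalized counts.

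Cavin2, for a coat protein of caveolae, was 15.4-fold higher in KO-c43, and Vcam1, an adhesion receptor for leukocyte integrins, 9.63-fold, at 2645, 2763 and 2992 normalized counts against 265, 285 and 322. Npr2, for the receptor of C-type natriuretic peptide, was 8.97-fold higher and Arhgap29, for a GTPase-activating protein, 8.70-fold. For each of these 4 genes every KO-c43 library exceeded every WT library and every KO-c19 library lay below WT.

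The genes furthest below KO-c19 in KO-c43 were led by Bcl11a, for a zinc finger repressor. It had 1100, 1129 and 1154 normalized counts in KO-c19, had 0, 0 and 0 in KO-c43, and had 708 to 785 in WT. Its neighbours kept their reads in KO-c43: Papolg was higher there (914 against 658) and Fancl differed by 0.16 ± 0.062, which did not pass (limma adjusted p = 0.0505). Fbln1, for the matrix protein fibulin 1, had 516, 623 and 598 in KO-c19 and was listed at 0, 0 and 2.09 in KO-c43, with WT at 66.8 to 87.7. Crip1, for a cysteine-rich LIM protein, had 595, 607 and 585 in KO-c19, 15.5, 9.93 and 8.38 in KO-c43, with WT at 1990 to 2128 (−5.65 ± 0.153, limma adjusted p = 1.14e-12). The order was therefore WT, KO-c19, KO-c43 for Crip1 and KO-c19, WT, KO-c43 for Bcl11a and Fbln1.

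The other 7 genes of this set lay 7.77-fold to 11.5-fold lower in KO-c43. C3, for the third complement component, had 533, 532 and 640 normalized counts in KO-c19 against 56.2, 39.7 and 50.3 in KO-c43, and WT had 628 to 673. Plat, for tissue plasminogen activator, had 762, 830 and 828 in KO-c19, and KO-c43 at 65.9 to 109 overlapped WT at 86.6 to 96.6. Megf6, a multiple EGF-like domain gene, had 1477, 1622 and 1681 in KO-c19 and 147 to 173 in KO-c43, with WT at 107 to 119. Acap1, for an Arf GTPase-activating protein, Epn3, for an endocytic epsin, Sh2d1b1, for an SH2 adaptor, and Epcam, an epithelial adhesion molecule, completed the set.

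**Figure D1:**
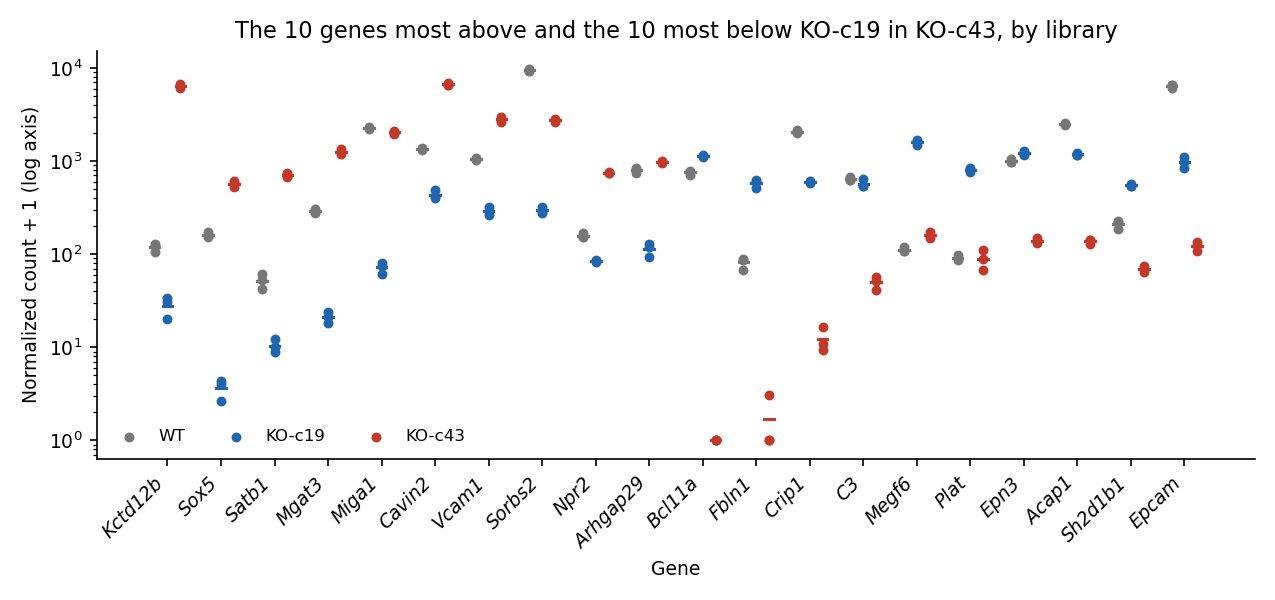
Normalized count + 1 on a log axis in each of the 9 libraries for the 10 genes furthest above and the 10 furthest below KO-c19 in KO-c43. Points are libraries and bars are group means. KO-c43 stands above both other groups for Kctd12b and Satb1, and Bcl11a lies at the floor in KO-c43 because it is listed at 0.

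Some transcripts were listed at 0 in every library of one line and had at least 50 normalized counts in every library of the other. There were 9 at 0 in KO-c43, and no fold is given for them. Beside Bcl11a these were the desmosomal cadherin genes Dsg2 (291 ± 6.34 in KO-c19, SD, n = 3) and Dsc2 (239 ± 12.3), the stanniocalcin gene Stc2 (219 ± 7.63), the Ras family gene Rasef (354 ± 14.1), the kinase suppressor of Ras gene Ksr2 (214 ± 12.8), Kazn (206 ± 23.4), P3h4 (109 ± 7.88) and the fatty acid transporter gene Slc27a6 (56.6 ± 3.78). Ksr2 had only 20.6 ± 0.651 in WT, whereas Dsg2 had 3144 ± 68.7. There were 3 at 0 in KO-c19: Zfhx4, a zinc finger homeobox gene (349 ± 17 in KO-c43), Gprin3 (332 ± 21) and Tmem98 (212 ± 24.2). Zfhx4 and Gprin3 were low in WT, at 3.84 ± 1.45 and 4.14 ± 0.464, so for these KO-c43 was the group that stood apart. B4galt6, beside Dsg2, had 2377 in KO-c19 and 2328 in KO-c43. On the other side of Dsg2, Gm10036 had 3621 in KO-c19 and 2968 in KO-c43 (−0.29 ± 0.081, limma adjusted p = 0.0151).

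Chromosomes 6, 13 and 19 stood apart in their medians, on chromosome 6 through the part before 118.5 Mb. In each library the median over a chromosome's genes was taken relative to each gene's mean over the 6 knockout libraries. On chromosome 13 these medians were −0.12, −0.17 and −0.17 in KO-c19 and 0.16, 0.16 and 0.19 in KO-c43, a difference of 0.32. On chromosome 19 they were −0.15, −0.11 and −0.12 in KO-c19 and 0.14 in each KO-c43 library, a difference of 0.27. On chromosome 6 they were −0.10, −0.12 and −0.12 in KO-c19 and 0.12, 0.13 and 0.12 in KO-c43, a difference of 0.23. No KO-c43 library overlapped a KO-c19 library on these 3 chromosomes, and the differences of the other autosomes and of X ran from −0.06 to 0.04. The libraries of the lines also did not overlap on chromosomes 1, 2, 4, 5, 7, 8, 9, 12 and 17, where the differences were small. An exact permutation test of 3 against 3 libraries (two-sided) gave p = 0.1 for each of the 3, the smallest value it can give. The same exact permutation test gave its smallest value for those other non-overlapping chromosomes too. The call asked for libraries that do not overlap and for the size rule of 0.15 from all genes. Only the size rule set the 3 apart.

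Many genes of these chromosomes were higher in KO-c43. Of 752 tested genes on chromosome 13, 401 were higher in KO-c43 and 37 lower; of 547 on chromosome 19, 312 and 29; and of 878 on chromosome 6, 393 and 100. The 3 chromosomes hold 2177 tested genes, with 1106 higher and 166 lower, and the other 14913 genes held 2587 higher (17.35%) and 3016 lower (20.22%) with a median of −0.02. Against WT, the median gene of chromosome 13 stood at −0.02 in KO-c19 against 0.28 in KO-c43. On chromosome 6 the median gene stood at −0.01 in KO-c19 with 0.17 in KO-c43, which pools unlike parts: −0.11 with 0.15 up to Ankrd26, and 0.24 with 0.23 from Dcp1b on. The median gene of chromosome 19 stood at −0.28 in KO-c19 against −0.06 in KO-c43, so there KO-c19 was the line further from WT. Only RNA was measured, both lines share the WT libraries, and why these chromosomes differ was not tested.

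**Figure D2:**
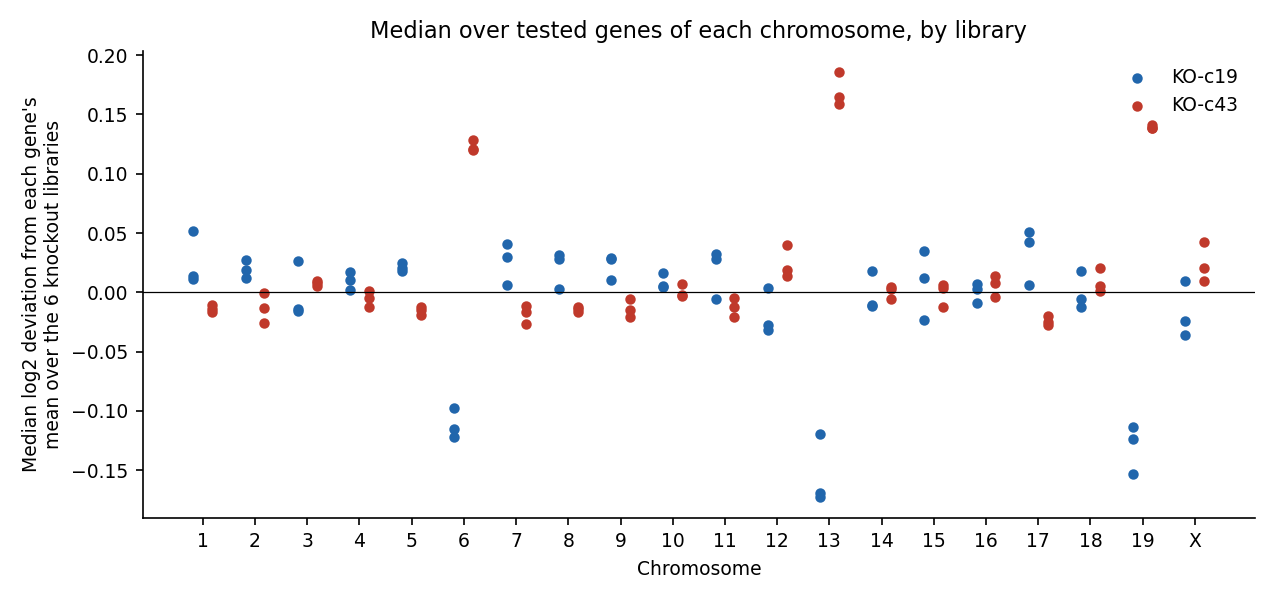
Median over the tested genes of each chromosome of the log2 deviation from a gene's mean over the 6 knockout libraries, with 1 point for each library. The KO-c43 libraries lie above and the KO-c19 libraries below 0 on chromosomes 6, 13 and 19, with differences of 0.23, 0.32 and 0.27.

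The most abundant genes of these chromosomes, in normalized counts not corrected for length, did not all follow the median. Ahnak, for a giant scaffold protein, had 216100, 206400 and 202800 in KO-c19 and 287700, 319300 and 317000 in KO-c43 (0.56 ± 0.049, limma adjusted p = 1.16e-07). Malat1, a nuclear long noncoding RNA, and Fth1, the ferritin heavy chain gene, both on chromosome 19, were also higher, by 0.35 ± 0.052 and 0.43 ± 0.064. On chromosome 6, Hnrnpf lies in the part up to 118.5 Mb, which had a median of 0.33. Emp1 and Gapdh lie in the part from 119.2 Mb on, which had a median of −0.08. Emp1, an epithelial membrane protein gene, was higher by 0.26 ± 0.04, against the median of its part. Hnrnpf and Gapdh gave 0.06 ± 0.032 and 0.09 ± 0.069, which did not pass (limma adjusted p = 0.139 and 0.323). Ctsl, for cathepsin L on chromosome 13, went against its chromosome, at 49310, 48000 and 50060 in KO-c19 and 33840, 34540 and 36090 in KO-c43 (−0.50 ± 0.034). The histone genes H1f4 and H4c4 gave −0.05 ± 0.045 and 0.03 ± 0.036 and did not pass (limma adjusted p = 0.399 and 0.528).

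Replication-dependent histone genes, whose transcripts are made in S phase and lack a poly(A) tail, sat inside the chromosome 13 difference without sharing it. Of 52 tested there, found by gene name, 9 were higher and 2 lower with a median of 0.05, beside 700 other genes of the chromosome, of which 56% were higher and 35 genes lower, with a median of 0.34. Their copies are nearly identical and can share reads, so values of single members are uncertain. Of the listed replication-dependent histone genes off chromosomes 6, 13 and 19, 9 were tested, of which 7 were lower and 1 higher, with a median of −0.34; H2bc18 on chromosome 3 had 8465, 8837 and 9235 in KO-c19 and 7171, 7470 and 6291 in KO-c43.

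The difference on chromosome 6 ended inside the chromosome. From the first tested gene to Ankrd26, between 3.3 and 118.5 Mb, 359 of 643 genes were higher and 34 lower with a median of 0.33. From Dcp1b to the end, between 119.2 and 149.5 Mb, 34 of 235 were higher and 66 lower with a median of −0.08. Within this part, from 140 Mb on, 4 of 62 genes were higher and 24 lower with a difference of −0.18. The library medians of the first stretch ran from −0.17 to −0.14 in KO-c19 and from 0.17 to 0.18 in KO-c43, and those of the second from 0.04 to 0.06 and from −0.04 to −0.02. The limits of this and the following stretches were set after the values were seen, and they are described without a test.

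Shorter stretches stood apart on other chromosomes. On chromosome 12, from Galc at 98.2 Mb to the end, 94 of 179 genes were higher in KO-c43 and 7 lower with a median of 0.22, where the 483 genes before gave a median of −0.02. On chromosome 2, of the 96 genes in the first 20 Mb, 47 were higher and 10 lower with a median of 0.24. On chromosome 15, 49 of 101 genes between 30 and 55 Mb were higher and 7 lower (median 0.23), as were 28 of 44 between 5 and 15 Mb, where 2 were lower (median 0.24). On chromosome 3, 15 of 28 genes between 5 and 15 Mb were higher and 0 lower with a median of 0.25. Also on chromosome 2, between Ptprj and Api5 at 90.3 to 94.3 Mb, 44 of 54 genes were lower in KO-c43 and none higher, with a median of −0.49. The library medians of this last stretch ran from 0.20 to 0.26 in KO-c19 and from −0.26 to −0.23 in KO-c43. Its median gene stood at 0.16 against WT in KO-c19 and at −0.43 in KO-c43, and the genes on either side gave medians of −0.00 and 0.04.

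Ndufs3, for a subunit of respiratory complex I, lies in that stretch at 90724978 to 90735171, and had 1488, 1561 and 1620 normalized counts in KO-c19 and 1113, 1052 and 1126 in KO-c43. Nat10 lies on the same chromosome beyond its end. The genes next to Nat10 were higher in KO-c43, Cat by 0.58 ± 0.046 and Caprin1 by 0.11 ± 0.034 (limma adjusted p = 1.1e-08 and 0.0141). On chromosome 9, between St3gal4 and Gramd1b at 35.0 to 40.4 Mb, 25 of 37 genes were lower and 1 higher with a median of −0.43, and the 77 genes that follow gave a median of −0.09.

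**Figure D3:**
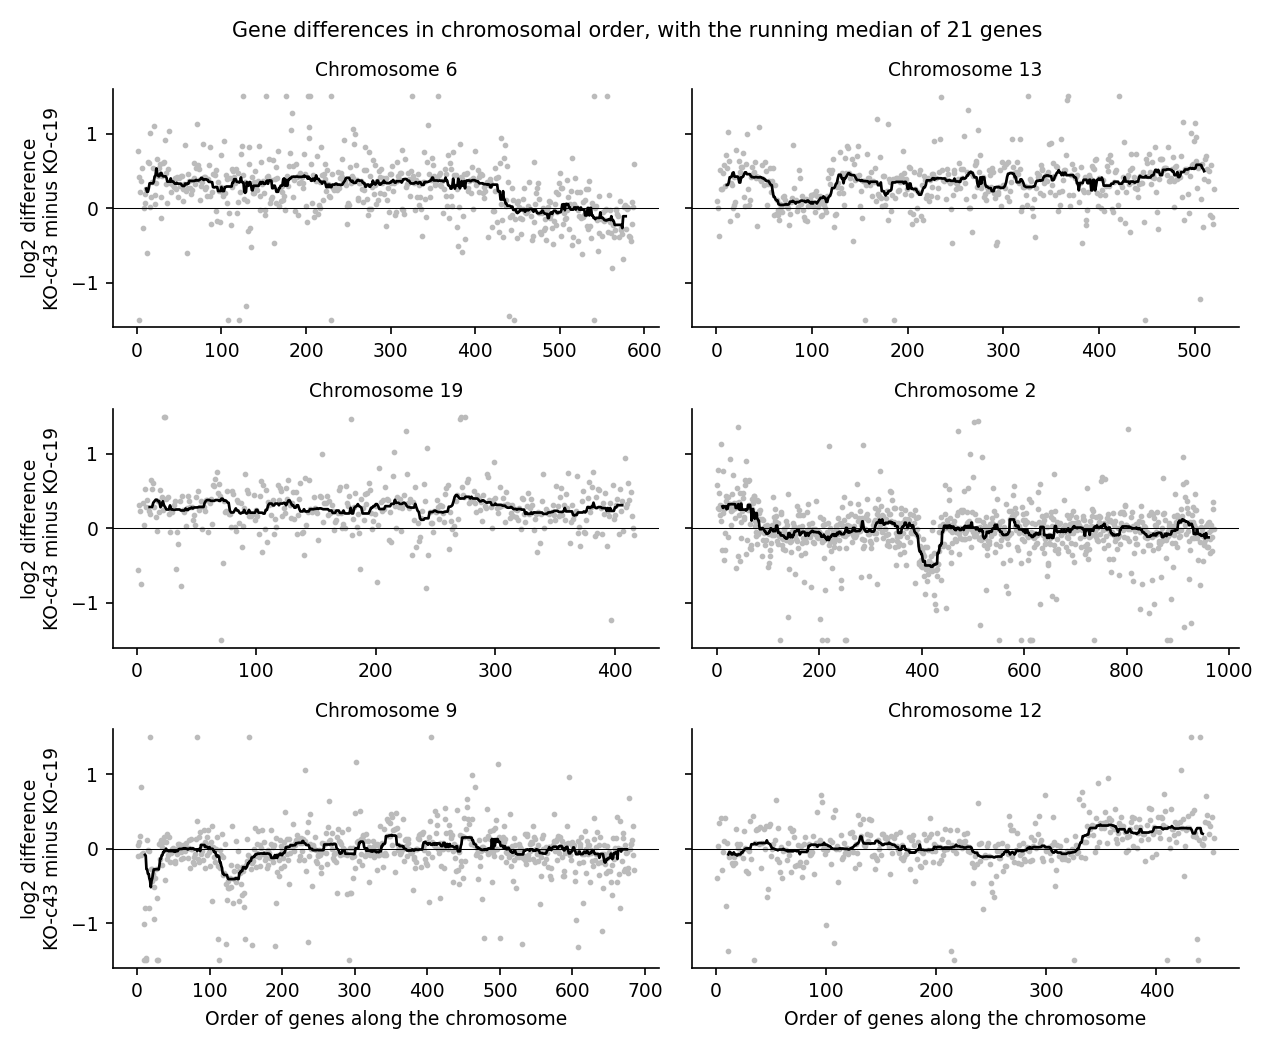
log2 difference of KO-c43 minus KO-c19 for genes with a mean of at least 100 normalized counts over the 6 libraries, in their order along 6 chromosomes. Points are genes, drawn at the limit of 1.5 where they lie beyond it, and the line is the running median of 21 genes. The line comes down to about 0 or below past Ankrd26 on chromosome 6, dips on chromosomes 2 and 9 and steps up late on chromosome 12.

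Gene lists were counted over all chromosomes and again off chromosomes 6, 13 and 19, so that a list with many members there can be told from one without. Each count is to be read beside the share over all tested genes, which was 21.6% higher and 18.6% lower. Off the 3 chromosomes that share was 17.35% higher and 20.22% lower. Epithelial genes were lower in KO-c43. Of 44 genes for epithelial identity and junctions, 42 had values and 30 passed the filter on low values; 25 of these were lower and 3 higher, with a median of −0.59. Off the 3 chromosomes 21 of 26 were lower and 3 higher, and the median was again −0.59. Among the others Esrp1, Cldn3 and Rab25, a splicing regulator, a claudin and a small GTPase of epithelia, did not pass the filter: they had at most 1.05, 2.23 and 10.02 normalized counts in any knockout library.

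Genes of desmosomes and epithelial membrane proteins were among the epithelial members furthest below KO-c19. Dsp, for desmoplakin and on chromosome 13, had 3667, 3640 and 3956 normalized counts in KO-c19 and 1281, 1276 and 1319 in KO-c43, where WT had 9193 to 9770 (−1.54 ± 0.042, limma adjusted p = 4.41e-15). St14, for the membrane protease matriptase, had 2379, 2609 and 2665 in KO-c19 and 560, 579 and 562 in KO-c43 (4.49-fold lower). St14 lies on chromosome 9 between 30 and 40 Mb, where 32 of 54 genes were lower and 3 higher with a median of −0.35. Epcam had 830, 963 and 1097 in KO-c19 and 125, 108 and 135 in KO-c43, with 6133 to 6580 in WT. The 3 genes kept 1 order, with WT highest and KO-c43 lowest and no overlap between groups.

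Cdh1, for E-cadherin, had 5797 ± 293 normalized counts in KO-c19 and 3731 ± 47.9 in KO-c43 (SD, n = 3), a smaller difference of −0.63 ± 0.039. The exceptions were Cldn4, for a tight junction claudin, at 113 ± 14.6 in KO-c19 and 459 ± 49.0 in KO-c43, Pkp2, for plakophilin 2, at 430 ± 24.6 and 864 ± 50.7, and Tjp1, for the junction scaffold ZO-1, which was 1.25-fold higher. Krt7, a simple-epithelium keratin, had 23320 and 23350 and differed by 0.00 ± 0.043 (limma adjusted p = 0.962).

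Genes of mesenchymal cells were more often higher. Of 17 tested, none on the 3 chromosomes, 11 were higher and 3 lower with a median of 0.27. Vim, for the intermediate filament vimentin, had 77340, 79490 and 77340 normalized counts in KO-c19 and 200300, 199300 and 203000 in KO-c43, with 36460 to 38910 in WT (1.36 ± 0.033, limma adjusted p = 9.88e-16). Vim lies inside a higher stretch of chromosome 2, and its difference exceeded the median of 0.24 over the 96 genes of the first 20 Mb. Sparc, for a matricellular protein, was 1.66-fold higher and Zeb2, a repressor of epithelial genes, 1.26-fold. Spp1, for osteopontin, and Fn1, for fibronectin, were 2.04-fold and 1.28-fold lower, at 81700 ± 6049 and 94030 ± 3732 in KO-c19. Twist1 and Snai1, also transcription factors of this transition, gave 0.05 and −0.06 and did not pass (limma adjusted p = 0.536 and 0.493).

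Genes of the actin cytoskeleton and of contraction were higher in KO-c43 in most cases. Of 33 tested, 25 were higher and 1 lower with a median of 0.26, and off the 3 chromosomes 20 of 28 were higher and 1 lower with a median of 0.24. Cnn2, for an actin-binding calponin, had 5641, 5977 and 5857 in KO-c19 and 12710, 12270 and 12540 in KO-c43, with 10330 to 10650 in WT (1.10 ± 0.035, limma adjusted p = 4.03e-14). Actin and tropomyosin genes off the 3 chromosomes were higher by less: Actg1 by 1.42-fold, Tpm1 by 1.39-fold and Myh9, for the non-muscle myosin heavy chain, by 1.29-fold. Cald1, Flnc and Zyx, for caldesmon, filamin C and zyxin, were 1.77-fold to 1.79-fold higher and lie on chromosome 6. Mylk, for myosin light chain kinase, was the member that was lower (142 against 93.9). Without KO-c19 replicate 3, 0 members were lower. Srf, the transcription factor that drives many of these genes, had 3316 in both lines.

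The YAP and TEAD targets answer to the Hippo pathway, in which the coactivators YAP and TAZ bind TEAD factors when the pathway is off. Of 25 tested genes of this list, which also holds the coactivators and factors themselves, 16 were higher and 6 lower with a median of 0.22. Off the 3 chromosomes 14 of 22 were higher and 5 lower. The promoters of the 4 members with the smallest adjusted p, Ccn2, Amotl2, Ankrd1 and Ccn1, were looked up in RefSeq (GRCm38.p6), to show the core TEAD motif GGAATG. Of these, 3 were found, and the 250 bases before each start are shown with matches to GGAATG or its reverse complement in capitals.
Amotl2 at chr9:102717554-102717803, plus strand: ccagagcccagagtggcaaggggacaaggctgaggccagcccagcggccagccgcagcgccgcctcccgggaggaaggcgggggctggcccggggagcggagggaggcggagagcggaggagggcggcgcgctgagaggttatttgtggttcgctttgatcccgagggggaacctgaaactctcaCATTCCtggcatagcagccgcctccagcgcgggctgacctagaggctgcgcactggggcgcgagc
Ankrd1 at chr19:36119845-36120094, minus strand: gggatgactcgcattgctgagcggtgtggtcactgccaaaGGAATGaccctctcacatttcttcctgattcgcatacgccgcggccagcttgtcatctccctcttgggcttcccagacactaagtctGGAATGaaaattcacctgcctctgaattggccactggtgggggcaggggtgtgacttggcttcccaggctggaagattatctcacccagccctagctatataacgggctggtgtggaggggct
Ccn1 at chr3:145649986-145650235, minus strand: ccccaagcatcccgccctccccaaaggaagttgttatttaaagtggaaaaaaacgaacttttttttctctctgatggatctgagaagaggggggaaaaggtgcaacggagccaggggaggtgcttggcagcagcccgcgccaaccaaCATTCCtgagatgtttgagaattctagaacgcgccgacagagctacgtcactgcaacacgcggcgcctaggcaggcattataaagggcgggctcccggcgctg
Each of the 3 held the motif, with 2 matches in Ankrd1 and 1 in each of the others. The motif was found on either strand in 4153 of 32851 promoter windows of that length, or 12.6%. The genes were taken from a list of known TEAD targets, so the matches were not a test, and a match describes letters and not binding.

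Ccn2, for the matricellular protein CTGF, had 739, 725 and 740 normalized counts in KO-c19, 2353, 2541 and 2378 in KO-c43, with WT at 11070 to 11830 (1.72 ± 0.042, limma adjusted p = 1e-15). Ankrd1, for an ankyrin repeat protein of the sarcomere and nucleus, had 3048, 2633 and 2557 in KO-c19, 8871, 8987 and 9624 in KO-c43, with WT at 10170 to 10450 (1.74 ± 0.054). Amotl2, for an angiomotin that binds YAP, had 3196, 3477 and 3413 in KO-c19 and 7233, 7447 and 7388 in KO-c43, with 7869 to 8094 in WT (1.13 ± 0.038). For all 3 genes every KO-c43 library lay between the KO-c19 and the WT libraries.

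Ccn1, for the matricellular protein CYR61, was 1.78-fold higher, at 1690, 1710 and 1649 against 2974, 3084 and 2931. Ajuba, for a LIM protein that binds LATS kinases, was 1.62-fold higher, and Dlc1, for a GTPase-activating protein, went from 23.1 ± 3.15 to 178 ± 18.9. Among the factors, Wwtr1, which encodes TAZ, was lower (15180 against 10930, −0.47 ± 0.035). Yap1 and Tead1 gave −0.04 ± 0.036 and 0.08 ± 0.04 and did not pass (limma adjusted p = 0.473 and 0.132).

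**Figure D4:**
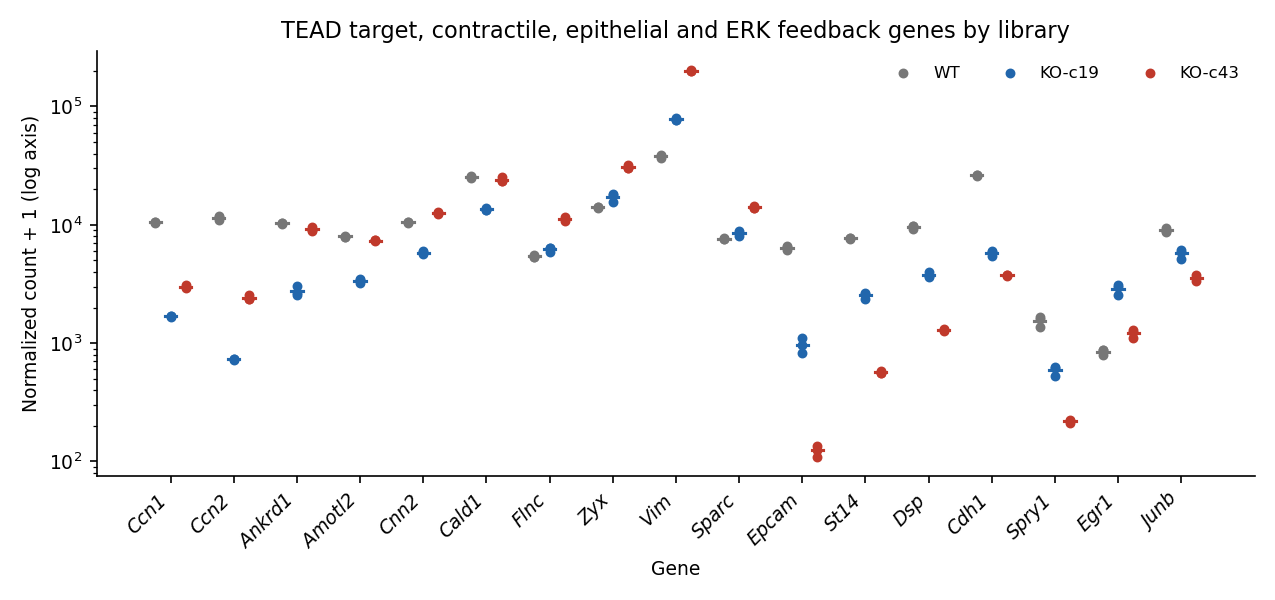
Normalized count + 1 on a log axis in each library for TEAD target, contractile, mesenchymal, epithelial and ERK feedback genes. Points are libraries and bars are group means. The genes were picked by hand, and members of these lists that went the other way are not drawn, among them Spp1, Fn1, Dusp5, Cldn4 and Pkp2. Among the genes drawn, KO-c43 lies above KO-c19 from Ccn1 to Sparc and below it from Epcam to Junb. WT lies above KO-c19 for Ccn1 and below both lines for Vim.

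Immediate early genes and negative feedback genes of the ERK pathway were more often lower in KO-c43. Of 31 tested, 19 were lower and 9 higher with a median of −0.19, and off the 3 chromosomes 19 of 29 were lower and 7 higher. Spry1, for a sprouty inhibitor, had 526, 610 and 624 in KO-c19 and 211, 219 and 223 in KO-c43, with 1378 to 1677 in WT (−1.42 ± 0.079, limma adjusted p = 8.17e-11). Egr1, an early growth response factor gene, had 2563, 3105 and 2954 in KO-c19 and 1237, 1279 and 1102 in KO-c43, with 799 to 879 in WT. Junb, an AP-1 subunit gene, was 1.61-fold lower and Myc 1.32-fold. The members did not move as one: Dusp5 and Dusp6, for phosphatases that act on ERK, were 1.69-fold and 1.24-fold higher, and the AP-1 gene Fosl1 went from 9637 to 14470. Dusp5 and Fosl1 lie on chromosome 19.

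Of 24 tested genes for NF-kappaB subunits and their feedback inhibitors, 14 were lower and 8 higher (median −0.16), and off the 3 chromosomes 14 and 5 of 21. Relb, a subunit of the noncanonical branch, had 592, 709 and 717 in KO-c19 and 360, 373 and 368 in KO-c43. Birc3, for an inhibitor of apoptosis, and Tnip1, for an A20-binding inhibitor, were 1.74-fold and 1.64-fold lower. Tnfaip3, which encodes A20, went the other way, at 5154, 5235 and 5173 in KO-c19 and 7005, 7109 and 6822 in KO-c43 (0.43 ± 0.034).

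Genes of antigen presentation by MHC class I were lower in 12 of 28 tested members and higher in 3, with a median of −0.17, and 11 and 2 of 26 off the 3 chromosomes. H2-D1, a classical class I heavy chain gene, had 5285, 5629 and 5629 in KO-c19 and 2916, 2774 and 3066 in KO-c43, with 6480 to 6929 in WT (−0.92 ± 0.044, limma adjusted p = 1.16e-11). H2-T23, a nonclassical gene, was 2.15-fold lower and Tap1, a peptide transporter gene, 1.68-fold. H2-K1, also a classical gene, had 2340 and 2366 and did not pass (limma adjusted p = 0.817), and neither did B2m (limma adjusted p = 0.494). Class I heavy chain genes are close copies of each other and can share reads. Interferon-stimulated genes went both ways, with 13 of 38 higher and 10 lower and a median of 0.06, which was 0.01 when libraries were divided by their totals. Among the 35 off the 3 chromosomes 10 were higher and 10 lower, with a median of −0.00. Among them Ifit2, on chromosome 19, had 92.4 to 122 in KO-c19 against 397 to 435 in KO-c43, and Irf1, on chromosome 11, had 1100 to 1123 and 1819 to 1957. Without KO-c19 replicate 1, 6 interferon-stimulated genes were lower in place of 10.

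Secreted signals to immune cells differed by large factors. Of 21 tested chemokines and colony factors 7 were higher (33.33%) and 8 lower (38.1%), against 21.6% and 18.6% of all tested genes. Tslp, for thymic stromal lymphopoietin, had 16440, 14200 and 15470 normalized counts in KO-c19 and 2826, 2853 and 3130 in KO-c43, which overlapped WT at 2771 to 3080 (−2.39 ± 0.055, limma adjusted p = 4.4e-15). Cxcl16, for a membrane-bound chemokine, had 1494, 1551 and 1677 in KO-c19 and 295, 299 and 265 in KO-c43, with 6312 to 6511 in WT. Csf1, for the macrophage growth factor, was 1.80-fold higher, at 6619 to 7068 and 11930 to 12520. Cxcl5, for a neutrophil chemokine, was also 1.80-fold higher. Tslp thus set KO-c19 apart from the other groups, and Cxcl16 was highest in WT and lowest in KO-c43.

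Matrix proteases and their inhibitors split, with 11 of 33 higher (33.33%) and 13 lower (39.39%), against 21.6% and 18.6% of all tested genes. Mmp10 and Mmp13, for stromelysin 2 and collagenase 3, were 6.80-fold and 3.68-fold lower in KO-c43. Mmp13 had 2333, 2020 and 2071 in KO-c19, 567, 589 and 583 in KO-c43, with WT at 115 to 144. Mmp9, for a gelatinase, had 3933, 4321 and 4274 in KO-c19 and 1834, 2017 and 1855 in KO-c43, whereas Adam19, for a membrane metalloprotease, was 1.87-fold higher (5991, 6136 and 6274 against 3252, 3332 and 3253). Of 27 collagens and their modifying enzymes 11 were higher and 7 lower; Loxl3, for a lysyl oxidase on chromosome 6, had 2509 to 2826 in KO-c19 against 5300 to 5553 in KO-c43, and Col12a1 had 15.6 to 25.6 and 278 to 282. Of 17 integrin subunits 8 were higher and 4 lower. Itgb7, for the beta 7 chain, had 198, 220 and 255 in KO-c19 against 1089, 1026 and 1102 in KO-c43, and Itga1, for a collagen-binding chain, was 2.34-fold lower although it lies on chromosome 13.

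Components of Notch and Wnt signalling differed in both directions, where 21.6% of all tested genes were higher and 18.6% lower. Of 23 tested Notch genes 7 were higher and 7 lower. The receptor gene Notch1 had 5838, 6617 and 6902 in KO-c19 and 2409, 2308 and 2126 in KO-c43, with 3906 to 4154 in WT. The ligand genes Dll1 and Jag2 were 3.82-fold and 2.82-fold higher, with Dll1 at 1182, 1141 and 1145 against 270, 328 and 311. Jag2 lies inside the higher stretch late on chromosome 12, which had a median of 0.22. The Notch target Hes1 gave −0.07 and did not pass (limma adjusted p = 0.266). Of 31 Wnt genes 8 were higher and 14 lower. Sfrp1, for a Wnt-binding decoy, had 797, 862 and 870 in KO-c19 and 144, 149 and 136 in KO-c43. Notum, for a Wnt deacylase, and Rnf43, for a ligase that removes Wnt receptors, were 6.30-fold and 5.60-fold lower. The ligand gene Wnt7a, on chromosome 6, was 2.18-fold higher, at 715, 641 and 627 against 1392, 1518 and 1403. Of 25 TGF-beta genes 11 were higher and 5 lower, and Tgfb1, the ligand gene, had 5643 to 6603 in KO-c19 and 2790 to 3102 in KO-c43. Of 20 BMP genes 4 were higher (20%) and 5 lower (25%), near the shares of all tested genes. Of 27 EGF and PDGF receptor family genes 10 were higher and 11 lower; Met, for the hepatocyte growth factor receptor on chromosome 6, was 1.89-fold higher, and Erbb3 had 409 to 446 in KO-c19 and 147 to 160 in KO-c43. Of 44 semaphorin, ephrin and guidance genes 14 were higher and 19 lower.

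Sterol synthesis genes, which SREBP2 controls, were mostly lower in KO-c43. Of 28 tested, 16 were lower and 3 higher with a median of −0.17. Off the 3 chromosomes 15 of 22 were lower and 1 higher with a median of −0.28. Cyp51, for lanosterol demethylase, had 1703, 1634 and 1526 in KO-c19 and 1109, 1128 and 1196 in KO-c43, with 7373 to 7782 in WT (−0.50 ± 0.047, limma adjusted p = 9.93e-08). Insig1, for the sterol sensor that retains SREBP in the endoplasmic reticulum, was 1.64-fold lower and Fdps, for farnesyl diphosphate synthase, went from 786 ± 21.6 to 523 ± 19.8. Hmgcs1, for a synthase early in the pathway, lies on chromosome 13 and gave −0.08 ± 0.043, which did not pass (limma adjusted p = 0.135). Ggps1, for geranylgeranyl diphosphate synthase, also on chromosome 13, was higher, at 1792, 1795 and 1901 against 1347, 1167 and 1235.

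Other metabolic lists leaned higher or split over all chromosomes, where 21.6% of all tested genes were higher and 18.6% lower. Of 35 fatty acid genes 12 were higher and 6 lower, of 36 glycolysis and hypoxia genes 16 and 7, and of 30 Atf4 and amino acid stress genes 15 and 6. Off the 3 chromosomes these counts were 6 and 5 of 26, 11 and 6 of 28, and 11 and 6 of 25. Among all tested genes off them 17.35% were higher and 20.22% lower, and the fatty acid counts lay near these shares. Fads3, for a fatty acid desaturase on chromosome 19, had 507 to 552 in KO-c19 and 1446 to 1520 in KO-c43. Psat1, for the serine synthesis aminotransferase on chromosome 19, had 10290 to 10480 and 16640 to 17080. Ldhb, a lactate dehydrogenase subunit gene, lies on chromosome 6 past the point where its difference ended, and had 126 to 149 in KO-c19 and 0 to 0.902 in KO-c43. Of 28 genes of the endoplasmic reticulum stress response 4 were higher and 6 lower, and off the 3 chromosomes 0 were higher and 6 of 24 lower. Of 40 glutathione and Nrf2 genes 14 were higher and 14 lower, with Nqo1, for a quinone reductase, at 994 to 1196 and 259 to 301. Of 41 lysosomal genes 17 were higher and 11 lower, and of 42 glycosyltransferases 10 and 13.

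Cytosolic ribosomal protein genes were lower by small amounts. Of 79 tested, 35 were lower and 5 higher with a median of −0.09, and off the 3 chromosomes 35 of 76 were lower and 2 higher. Rps15, of the small subunit, had 30300, 32040 and 31040 in KO-c19 and 27710, 26150 and 26710 in KO-c43 (−0.21 ± 0.036, limma adjusted p = 9.54e-05). Rpl32, of the large subunit and on chromosome 6, was 1.28-fold higher. Without KO-c43 replicate 2 the lower count was 23, and no member passed a test against a fold of 1.2 in either direction. The Rn18s share was higher in every KO-c43 library than in every KO-c19 library, and its part in this count was not tested. Ribosomal protein genes have many pseudogenes that can share their reads.

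**Figure D5:**
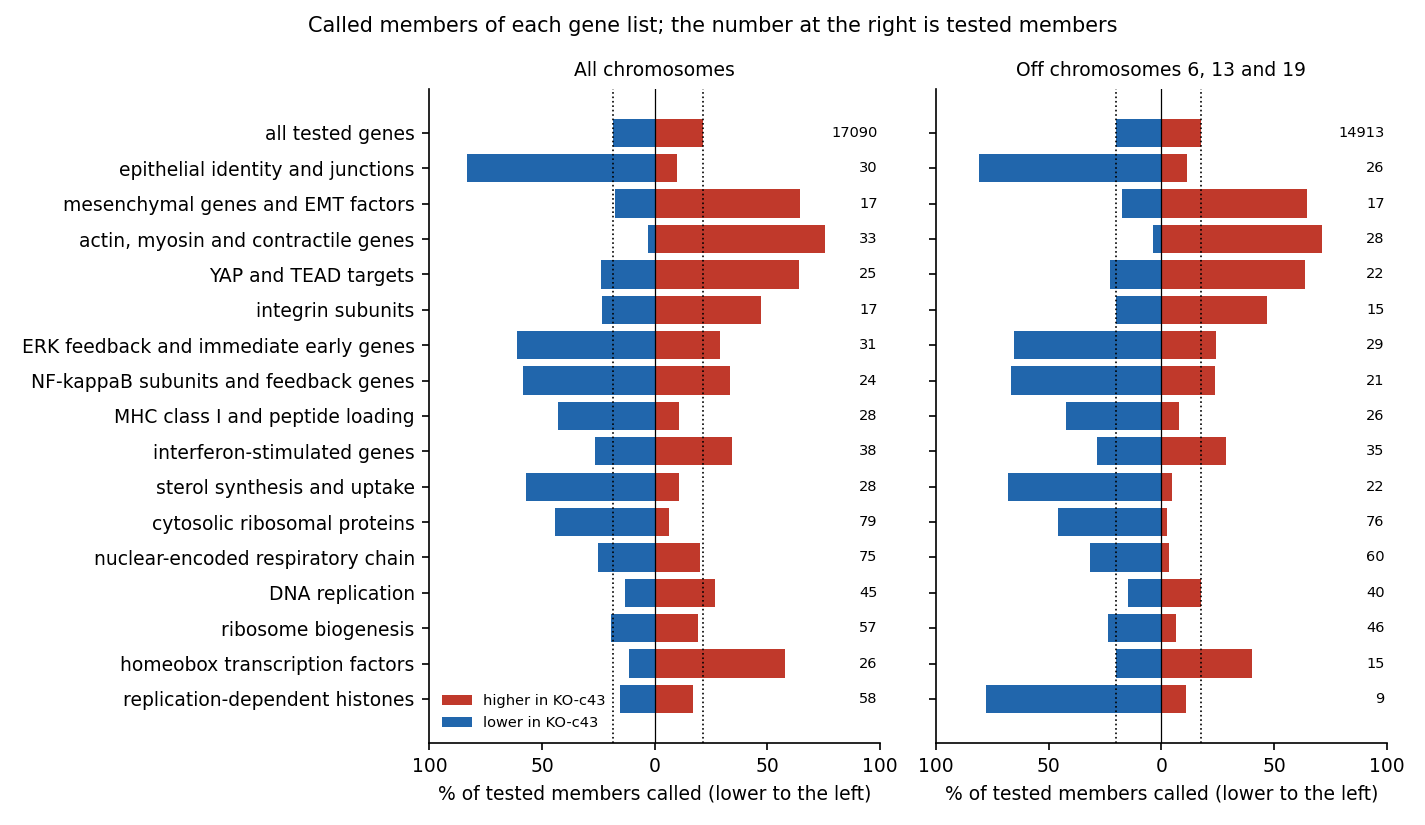
Percentage of tested members of 16 gene lists that were higher (to the right) or lower (to the left) in KO-c43, over all chromosomes and off chromosomes 6, 13 and 19. Dotted lines mark the share over all tested genes, 21.6% and 18.6% over all chromosomes, and the bar for epithelial genes reaches 83.3% lower.

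For some lists the members on chromosomes 6, 13 and 19 made up most of the higher genes. Of 57 ribosome biogenesis genes, the class to which Nat10 belongs, 11 were higher and 11 lower. That was 19.3% in each direction, near the 21.6% and 18.6% of all tested genes. Off the 3 chromosomes 3 of 46 were higher and 11 lower, beside 17.35% higher and 20.22% lower of all tested genes there. Of 75 nuclear-encoded respiratory chain genes 15 were higher and 19 lower, and off the 3 chromosomes 2 of 60 were higher and 19 lower. Dividing by library totals raised the lower respiratory count from 19 to 38, quantile scaling raised it to 35, and it was 10 without KO-c43 replicate 2 and 11 without KO-c19 replicate 2. Sdha, for a complex II subunit on chromosome 13, had 6393 to 6525 in KO-c19 and 8163 to 8517 in KO-c43. Of 15 mitochondrially encoded genes 1 was higher and none lower; mt-Nd3 reached 36650 in KO-c43 replicate 3 and passed narrowly (0.50 ± 0.156, limma adjusted p = 0.0449), and it no longer passed without KO-c43 replicate 3, where the difference was 0.35.

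Of 45 DNA replication genes 12 were higher (26.67%) and 6 lower (13.33%), against 21.6% and 18.6% of all tested genes. Off the 3 chromosomes 7 of 40 were higher and 6 lower, near the shares of all tested genes there, 17.35% higher and 20.22% lower. Of 46 mitosis genes the counts were 15 and 8, and 10 and 7 of 40 off them. Mcm2, for a subunit of the replicative helicase on chromosome 6, had 7488 to 8115 in KO-c19 against 9950 to 10460 in KO-c43, and Ccnb1, for cyclin B1 on chromosome 13, had 4763 to 5079 and 6421 to 6554. Of 19 G1 cyclin and inhibitor genes 5 were higher and 5 lower, and of 28 p53 genes 9 and 10. For p53 the counts off the 3 chromosomes were 4 and 10 of 22. Cdkn1a, which encodes the inhibitor p21, had 1772, 2020 and 1972 in KO-c19, 1027, 994 and 1032 in KO-c43, with WT at 490 to 581.

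Among chromatin genes, 7 of 23 acetyltransferases and related genes were higher (30.43%) and 4 lower (17.39%). Over all tested genes the shares were 21.6% and 18.6%. Of 43 histone methylation enzymes 11 were higher and 11 lower, 25.58% in each direction. Off the 3 chromosomes the latter counts were 6 and 10 of 36, beside 17.35% higher and 20.22% lower of all tested genes there. Ezh2, for the Polycomb methyltransferase on chromosome 6, had 3314, 3122 and 2961 in KO-c19 and 5425, 5467 and 5709 in KO-c43 (0.82 ± 0.044, limma adjusted p = 5.1e-11). Nsd1, for a histone H3 lysine methyltransferase on chromosome 13, was 1.87-fold higher. Of 26 homeobox genes 15 were higher and 3 lower with a median of 0.21, and off the 3 chromosomes 6 of 15 were higher and 3 lower with a median of 0.01. The Hoxa cluster lies on chromosome 6, where Hoxa7 went from 311, 327 and 333 in KO-c19 to 998, 995 and 955 in KO-c43, which was 3.03-fold higher, while Hoxa6 differed by −0.03 and did not pass (limma adjusted p = 0.825).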

How the data were processed

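RNA was sequenced from 9 libraries, 3 each of WT, KO-c19 and KO-c43. The deposited values are gene counts that the authors had normalized with a size factor for each library, a signal and not raw counts. Reads were handled with cutadapt, STAR and Partek and the build mm10, per the submitters' processing notes, which give no versions. The start coordinates of the deposited values were the same as in a GRCm38 annotation for 468 of 22292 genes, so its coordinates are printed as given. In the knockout libraries 82.7% to 83.8% of low values lay within 0.1 of whole reads, so no count model was used.

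log2(normalized count + 1) was fitted with limma 3.58.1 (with statmod 1.5.0, R 4.3.3 and version 1.17.8 of the package data.table; intensity trend, robust variances) over all 9 libraries, for genes with at least 10 in at least 3 of the 6 knockout libraries, and p-values were adjusted over all tested genes at 0.05. TMM factors for an alternative were computed from the normalized counts. Tables and plots used Python 3.11.15 with numpy 2.4.6, pandas 2.3.3 and matplotlib 3.10.9. The fit was tested on simulated data. The comparison and the gene lists were chosen with earlier results of these data known.

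Genes were named by rule: Nat10; the 10 higher and 10 lower genes with the largest difference, a higher group mean of at least 500 and no overlap; the 3 most abundant of each shifted chromosome; and from every list, as many as 4 genes ranked first by adjusted p. Other genes named, such as neighbours, ends of stretches, genes listed at 0, keratins and the members said not to pass, were chosen after their values were seen. Alternatives changed the libraries fitted, pseudocount, filter, scaling, variance model, replicate block and fold threshold, or left out 1 library. Some results are not reported here.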

Additional observations from a re-analysis of the deposited data

Results flagged for a closer look

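Among the 10 higher and 10 lower genes with the largest differences, 12 had the lines on opposite sides of WT, with each line's difference from WT past the threshold and the difference between the lines tested by limma. Both lines share the WT libraries. Kctd12b differed between the lines by 7.88 on the log2 scale and stood at −2.12 against WT in KO-c19 and 5.76 in KO-c43. Sox5 differed by 7.31 (−5.48 and 1.83 against WT), Satb1 by 6.10 (−2.32 and 3.78) and Mgat3 by 5.91 (−3.78 and 2.13). Cavin2 differed by 3.95 (−1.63 and 2.31), Vcam1 by 3.27 (−1.86 and 1.41), Npr2 by 3.17 (−0.91 and 2.25) and Arhgap29 by 3.12 (−2.82 and 0.30).

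In the other direction Epn3 differed by −3.13 (0.28 and −2.85 against WT) and Sh2d1b1 by −2.98 (1.40 and −1.59). Fbln1 differed by −8.63 (2.84 and −5.79) and Bcl11a by −10.14 (0.58 and −9.56), which are fitted values against libraries listed at or near 0 and give no fold.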

How the results depend on the processing

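Of single genes, only those named by rule were compared across the alternatives, and the other genes named here were not. No gene named by rule and past the threshold, and no shift of chromosomes 6, 13 and 19, changed sign under the alternatives run. Differences near 0 did: H4c4 was −0.02 under total scaling and −0.03 under quantile scaling, and Nat10 −0.00 under TMM, −0.05 under total and −0.01 under quantile scaling. The medians of the TGF-beta, collagen, glutathione, mitosis, replication-dependent histone and ribosome biogenesis lists turned negative under total scaling. A filter of at least 50 left 255 genes at least 2-fold higher in KO-c43 and 346 at least 2-fold lower in KO-c43, and a test against a fold of 1.2 called 1269 higher and 991 lower. The chromosome 6 shift was 0.219 with a pseudocount of 5, 0.243 with the filter of 50, 0.243 with quantile scaling, 0.244 over genes with a mean of at least 100 and 0.205 as a trimmed mean. Total scaling gave 2920 higher and 4281 lower, and quantile scaling 3508 and 3630, so which direction held more genes depended on the scaling. Fitting only the 6 knockout libraries gave 3541 higher and 3055 lower. Leaving out 1 library at a time gave 3208 to 4029 higher and 2599 to 3532 lower, 390 to 422 at least 2-fold higher in KO-c43 and 525 to 575 at least 2-fold lower in KO-c43, 0.218 to 0.236 for the chromosome 6 shift, 0.310 to 0.340 for the chromosome 13 shift and 0.252 to 0.273 for the chromosome 19 shift, and −0.01 to 0.01 for Nat10. Same-numbered libraries of the lines had correlations of their deviations of −0.0771, 0.00639 and −0.0251, so the numbers do not pair them; a replicate block gave 3653 higher and 3085 lower. The 179 genes named by rule include some that did not pass in the main fit, such as Nat10. Of the 179, 23 passed in the main fit and did not pass against a fold of 1.2. The lines were each sequenced from 1 cell line, so differences between knockout lines in general cannot be told apart from differences between these lines.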
